A study of Mus musculus with 10 samples.

Results

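The 32 genes described here encode nuclear receptors, and they were followed in RNA of glomeruli, the capillary filters of the kidney, from mice. They were chosen by name from a list of receptor genes, and all 32 were found among the 22053 gene identifiers of the deposited table after identifiers had been matched to mouse symbols. The list leaves out further receptor genes, 15 of which are summarised near the end. Glomerular RNA was sequenced from 5 wild-type libraries and from 5 libraries of mice carrying Col4a3 p.G799R, a missense change in the alpha 3 chain of type IV collagen of the glomerular basement membrane. The comparison named by the study is G799R against wild type. Tauroursodeoxycholic acid appears in the title of the series, but no title of the 10 libraries, all of which were analysed here, names it. The sources used here do not give zygosity, strain, age, sex, time of tissue collection or the way glomeruli were isolated. Whether each of the 5 libraries of a group is a different mouse is not stated either, and the p-values therefore reflect variation among libraries that could be technical alone.

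Nuclear receptors are transcription factors, most of which are switched by small fat-soluble ligands such as steroid and thyroid hormones, retinoids, fatty acids and oxysterols. Many bind DNA as pairs in which one partner is a retinoid X receptor, and they recruit coactivators or corepressors according to whether a ligand is bound. In the kidney HNF4A is known as a regulator of proximal tubule genes, the mineralocorticoid receptor acts in the distal tubule and collecting duct, and the glucocorticoid receptor is present in most cells, podocytes included.

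Levels are given in FPKM, fragments normalised to transcript length and sequencing depth, as the authors deposited them. Summed FPKM ran from 320720 to 340875 per library, and the sequencing depth behind the values is unknown. Differences are G799R minus wild type in log2(FPKM + 1), a scale that understates changes of low genes, and folds are ratios of mean FPKM. They were tested with limma over the 13117 genes averaging 0.5 FPKM or more, with Benjamini-Hochberg adjustment over all of them and a threshold of 0.05. The text calls a gene higher or lower only where it passed. The mutated gene itself, Col4a3, went from 138 ± 13.6 to 213 ± 12.4 FPKM (SD, n = 5 each; limma adjusted p = 6.2e-05), which does not check a missense label.

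The groups differed in their content of tubule and glomerular RNA, which was summarised by a pair of marker scores. The tubule score, the mean log2(FPKM + 1) of 33 markers of proximal tubule, distal tubule and collecting duct, fell from 6.74 ± 0.27 to 4.37 ± 0.41 (wild type and G799R; SD over 5 libraries). The glomerular score, the same mean over 38 markers of podocytes, endothelium and mesangium, rose from 6.44 ± 0.23 to 7.12 ± 0.061. In neither score did the groups overlap, and both differences (−2.38 and 0.69) had an exact two-sided permutation p of 0.00794, the smallest that 5 against 5 libraries allow. The summed share of FPKM of the 18 proximal tubule markers, all of them called lower and none at 0 in any library, was 2.25% to 4.18% for wild type against 0.259% to 0.734% for G799R. In such bulk samples fewer cells of a type and less RNA per cell cannot be told apart. The podocyte marker Podxl averaged 1301 FPKM in wild type and 2221 in G799R, so glomerular RNA was present in both groups, and the proximal tubule product Kap averaged 4449 and 1021 FPKM.

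Of the 32 receptor genes 17 averaged at least 10 FPKM over the 10 libraries, 10 lay from 1 up to 10, 2 from 0.5 up to 1 and 3 below 0.5. The most abundant were Nr1d2, Nr1d1, Nr1h2, Nr2f2, Rarg, Hnf4a and Nr3c1, with means of 48.0 down to 39.9 FPKM, and among the first 5 of these every pair of neighbours overlapped in range in both groups. Rxrg and Nr5a2 were at the bottom, with no library above 0.252 FPKM for Rxrg and 0.211 for Nr5a2, and Pgr, the progesterone receptor gene, ranged from 0.133 to 0.619 FPKM in wild type and 0.263 to 0.980 in G799R. These 3 were not tested. The summed level of the 32 genes was similar in size in the groups, at 488 to 566 FPKM in wild type and 457 to 589 in G799R, but its makeup differed, since Hnf4a alone took a mean of 14.1% of this sum in wild type and 1.85% in G799R.

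**Figure D1:**
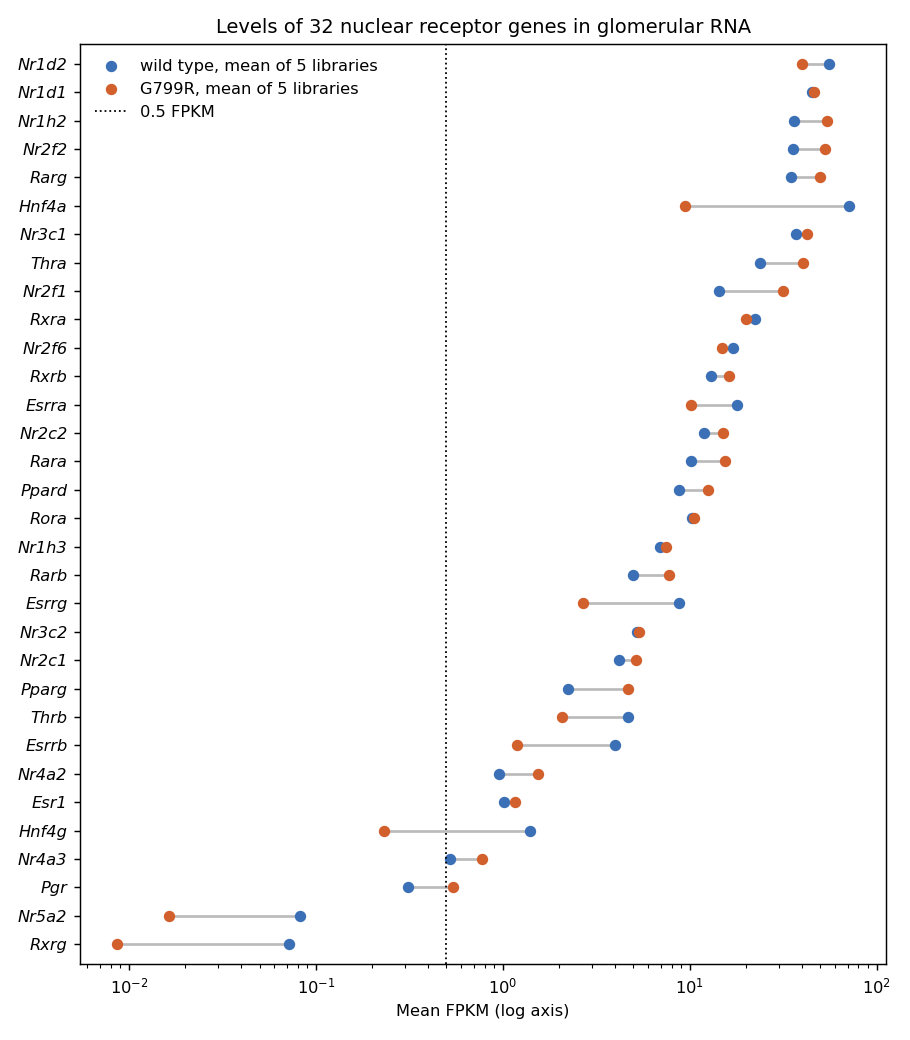
Mean FPKM of each of the 32 receptor genes in wild type (blue) and G799R (orange), 5 libraries each, on a log axis, ordered by the mean over all libraries, with a dotted line at the 0.5 FPKM needed for testing. The widest gap among tested genes joins the 2 means of Hnf4a, 71.6 and 9.47 FPKM, while Nr1d1, Rora and Nr3c2 have nearly coinciding means.

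Of the 29 tested receptor genes 14 were called higher and 6 lower in G799R, where 40.5% and 19.3% of all tested genes were called higher and lower, or 59.8% in either direction. These shares of the receptors, 48.3% and 20.7%, lie near the background and say nothing particular about them, and their median log2 difference of 0.17 equals that of all tested genes to 2 decimals. The 6 lower genes were Hnf4a, Hnf4g, Esrra, Esrrb, Esrrg and Thrb, and the 14 higher ones were Rara, Rarb, Rarg, Rxrb, Ppard, Pparg, Nr1h2, Thra, Nr3c1, Nr2c1, Nr2c2, Nr2f1, Nr2f2 and Nr4a2. Without overlap between the groups were 11 higher and 6 lower members, beside 26.1% and 15.7% of all tested genes (41.8% in either direction).

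**Figure D2:**
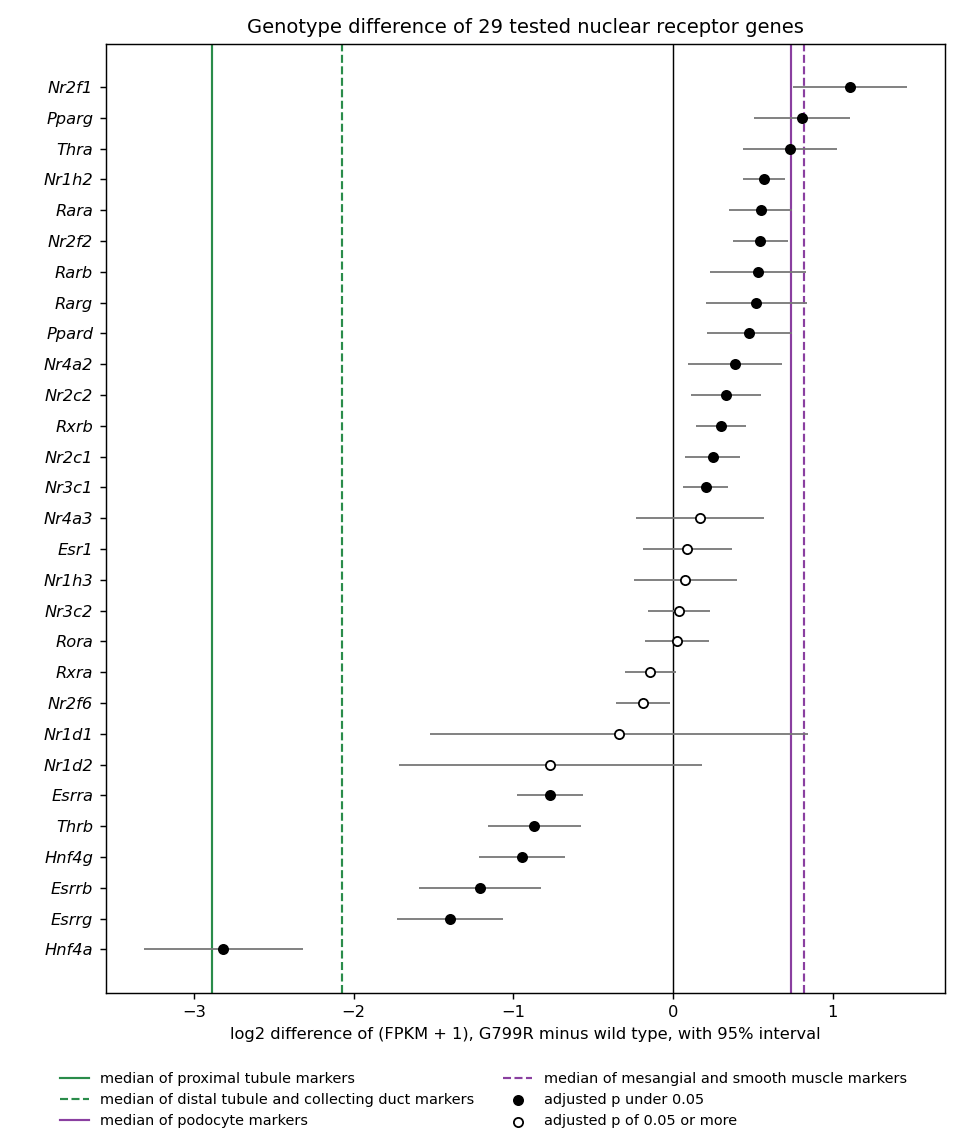
Log2 difference of (FPKM + 1), G799R minus wild type, with its 95% interval from limma for the 29 tested receptor genes, filled where the adjusted p was under 0.05, with vertical lines at the medians of 4 marker lists. Hnf4a at −2.82 lies at the line of the proximal tubule markers (−2.89), the other 5 lower genes lie between 0 and the line of the distal tubule markers (−2.07), and Nr2f1 at 1.11 is the farthest to the right.

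Hnf4a, the gene of the hepatocyte nuclear factor that drives many proximal tubule genes, showed the largest difference of any of the 29 receptors. It stood at 49.4, 86.5, 60.5, 91.9 and 69.8 FPKM in wild-type libraries 1 to 5 and at 12.6, 12.6, 8.92, 7.95 and 5.26 in G799R libraries 1 to 5. The lowest wild-type library was thus still well above the highest G799R library. The mean was 7.56-fold lower, with a log2 difference of −2.82 ± 0.23 (SE; limma adjusted p = 3.4e-06). Among the 18 proximal tubule markers 12 had a more negative difference than Hnf4a and 6 a less negative one, and of the 15 markers of distal tubule and collecting duct 1 had a more negative one. Hnf4a has the identifier ENSMUSG00000017950 and lies on chromosome 2 at 163506808 to 163572910 of the mouse build GRCm38.

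Hnf4g, its paralog, was a far lower gene that moved by a like proportion. Its values were 1.56, 1.57, 1.13, 1.82 and 0.890 FPKM in wild type and 0.263, 0.242, 0.279, 0.174 and 0.199 in G799R, a 6.03-fold lower mean without overlap. Its log2 difference of −0.95 ± 0.12 (SE; limma adjusted p = 7.3e-05) is compressed by the pseudocount of 1, and with a pseudocount of 0.1 it was −2.14. The ratio of Hnf4a to Hnf4g within a library, which does not depend on scaling, was 31.7 to 78.4 in wild type and 26.4 to 52.2 in G799R, with overlapping groups. Over 13 pairs of related receptors compared by their ratio within a library, the groups were apart in 3 and overlapped in 10. Such a ratio can still depend on the mix of tubule and glomerular RNA, which differed between the groups.

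The estrogen-related receptors, orphan receptors that switch on genes of mitochondrial energy production, were all lower. Esrrg was at 6.01, 10.04, 8.02, 10.04 and 9.79 FPKM in wild-type libraries and at 2.97, 3.29, 2.56, 1.81 and 2.86 in G799R, 3.25-fold lower (log2 difference −1.40 ± 0.15 SE; limma adjusted p = 2.2e-05). Esrrb was at 3.15, 3.17, 4.02, 4.52 and 5.13 FPKM in wild type against 1.04, 1.18, 1.01, 0.611 and 2.10, 3.36-fold lower, with G799R library 5 the highest of its group (limma adjusted p = 1.6e-04). In Esrra, the most abundant of the 3, the fall was smaller, from 15.6, 17.7, 16.1, 20.6 and 20.1 FPKM to 11.3, 11.0, 9.41, 9.76 and 9.17, or 1.78-fold (log2 difference −0.77 ± 0.094 SE; limma adjusted p = 4.9e-05). In each of the 3 genes every G799R library lay below every wild-type library. The members differed in how far they fell: the ratio of Esrra to Esrrg was 1.76 to 2.60 in wild type and 3.21 to 5.38 in G799R, without overlap, whereas the ratio of Esrrg to Esrrb overlapped (1.91 to 3.16 and 1.36 to 2.97).

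The 2 thyroid hormone receptor genes moved in opposite directions. Thrb stood at 3.38, 4.78, 4.21, 6.27 and 4.71 FPKM in wild-type libraries 1 to 5 and at 2.04, 1.90, 1.72, 2.13 and 2.60 in G799R libraries 1 to 5, 2.25-fold lower (log2 difference −0.87 ± 0.13 SE; limma adjusted p = 2.4e-04). Thra stood at 26.3, 23.7, 27.2, 18.1 and 23.3 FPKM in wild type and at 29.8, 38.9, 43.3, 48.8 and 40.3 in G799R, 1.70-fold higher (log2 difference 0.73 ± 0.13 SE; limma adjusted p = 8.2e-04). Neither gene had overlapping groups, though the highest wild-type library of Thra, at 27.2 FPKM, came near the lowest G799R library at 29.8. Their ratio within a library does not depend on scaling, but it can still depend on the mix of tubule and glomerular RNA. The part of that mix in the shift was not tested. Thra to Thrb was 7.78, 4.95, 6.47, 2.88 and 4.95 in wild-type libraries and 14.6, 20.5, 25.2, 22.9 and 15.5 in G799R libraries. After scaling every library to 1 glomerular score Thrb had a log2 difference of −1.39 (limma adjusted p = 8.0e-05) and Thra of 0.058 (adjusted p = 0.631). That scaling called 65.6% of all tested genes lower, so the call of Thrb under it is no separate support. Of 5 genes known to respond to thyroid hormone receptors 2 rose and 2 fell, with Hr 2.52-fold higher and Me1 6.40-fold lower. Hr had the lowest mean FPKM of the 5. Scaling to 1 glomerular score left 0 of these 5 higher and 2 lower. Shares over all tested genes as deposited were 40.5% higher and 19.3% lower.

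**Figure D3:**
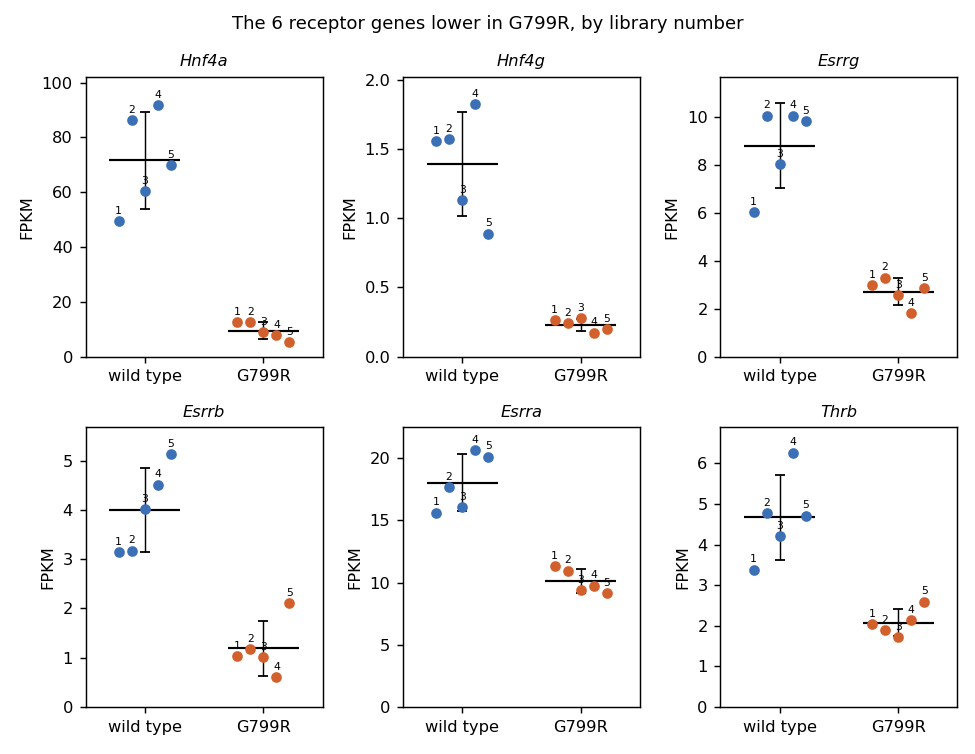
FPKM of the 6 receptor genes lower in G799R, each point 1 library with its number beside it, horizontal lines the group means and bars 1 SD over 5 libraries, axes starting at 0. In every panel all 5 G799R libraries lie below all 5 wild-type libraries, and wild-type library 1 is the lowest wild-type library for Hnf4a (49.4 FPKM), Esrrg (6.01), Esrrb (3.15), Esrra (15.6) and Thrb (3.38).

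Promoter windows were read for the lower genes to show what their start sites share in letters. RefSeq windows on GRCm38.p6 ran from 250 bases before to 50 bases after a start. They were searched for 29 of the 32 receptors, with 48 windows in all. Thra, Nr3c1 and Hnf4g were not searched, and the receptor counts below leave them out. The letters GTTAAT, a half-site of the tubule and liver factors of the HNF1 family, were searched on both strands. They occurred in 7.1% of all 32851 windows and in 5 of the 48 receptor windows, of which 2 belong to the untested Nr5a2 and Rxrg, 1 each. Among the 5 lower receptors searched they occurred in 3 (Hnf4a, Thrb and Esrrg, in 3 of 11 windows). They occurred in 0 of the 20 windows of the 12 higher receptors searched. These counts are too small to read more from. In all 7 motifs were searched, each on both strands, and this one was chosen for display after the counts were seen. The letters CACGTG (E-box, 7.15% of all windows) were in 1 of 11 windows of lower and 2 of 20 of higher receptors. AGGTCA (receptor half-site, 16.3% of all windows) was in 1 of 11 and 4 of 20. AGAACA (glucocorticoid receptor half-site, 19.0% of all windows) was in 2 of 11 and 0 of 20. AGGTCA repeated with 1 or 5 bases between, and TTATGTAA (D-box), were in 0 of the 48 receptor windows. These are rare in all windows (0.0396%, 0.00913% and 0.938% in turn), so their absence says nothing particular about receptors. The 3 windows are on the plus strand at chr2:163546905-163547204, chr14:17660710-17661009 and chr1:187651991-187652290, and capitals mark the half-site, here on the opposite strand as ATTAAC. Hnf4a holds it at positions −81 and −74 from the start, Thrb at −44 and Esrrg at position 1, the start itself.
Hnf4a: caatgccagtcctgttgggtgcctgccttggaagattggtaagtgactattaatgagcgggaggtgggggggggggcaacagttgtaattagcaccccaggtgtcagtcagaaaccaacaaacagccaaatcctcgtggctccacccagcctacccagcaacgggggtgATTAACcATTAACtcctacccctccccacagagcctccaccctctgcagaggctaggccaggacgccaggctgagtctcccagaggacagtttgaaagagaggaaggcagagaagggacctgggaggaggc
Thrb: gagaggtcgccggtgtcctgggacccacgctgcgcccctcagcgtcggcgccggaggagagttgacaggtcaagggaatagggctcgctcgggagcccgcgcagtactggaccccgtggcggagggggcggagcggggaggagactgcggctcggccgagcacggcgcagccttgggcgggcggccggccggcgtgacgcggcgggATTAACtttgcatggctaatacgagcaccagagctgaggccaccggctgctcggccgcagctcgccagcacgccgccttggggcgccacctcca
Esrrg: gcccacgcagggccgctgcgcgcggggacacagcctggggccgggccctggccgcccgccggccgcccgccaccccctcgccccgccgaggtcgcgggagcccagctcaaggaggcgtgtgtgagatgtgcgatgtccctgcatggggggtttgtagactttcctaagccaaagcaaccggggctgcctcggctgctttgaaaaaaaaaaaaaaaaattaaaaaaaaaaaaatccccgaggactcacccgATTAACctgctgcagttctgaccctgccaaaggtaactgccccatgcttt
A match of letters is a description and not a bound site, and these genes have 2, 2 and 4 windows in turn, of which the one with the match is shown.

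Among the retinoid receptors, which carry the vitamin A signal, the 3 retinoic acid receptor genes were all higher as deposited, and lay between −0.16 and −0.070 without a call once libraries were scaled to 1 glomerular score. Rarg, the most abundant, was at 41.2, 29.03, 40.7, 24.4 and 38.5 FPKM in wild type and at 47.5, 45.6, 51.0, 44.7 and 59.1 in G799R, 1.43-fold higher (log2 difference 0.52 ± 0.14 SE; limma adjusted p = 0.00893). Rara was at 11.6, 10.5, 9.98, 8.87 and 9.91 FPKM against 15.4, 13.1, 15.7, 14.9 and 17.8, and Rarb at 4.93, 4.10, 5.85, 5.01 and 5.11 against 6.34, 10.6, 8.74, 6.88 and 6.29. All 3 rose by similar folds (1.43 to 1.56), with no overlap between groups. The retinoid X receptors, the shared partners, did not move as 1 block. Rxrb rose 1.25-fold, with 12.3 to 14.0 FPKM in wild type and 14.6 to 17.5 in G799R (limma adjusted p = 0.00384), a call lost under median-of-ratios scaling (adjusted p = 0.0764) and turned to lower under glomerular marker scaling (−0.35). Rxra was at 20.3 to 25.3 FPKM in wild type and 18.7 to 22.0 in G799R and was not called (log2 difference −0.14, 95% interval −0.30 to 0.015; limma adjusted p = 0.107). The ratio of Rxrb to Rxra was 0.601, 0.602, 0.615, 0.485 and 0.612 in wild-type libraries. In G799R libraries it was 0.896, 0.856, 0.664, 0.730 and 0.902. The shift between the partners thus did not depend on scaling, and the part of the differing tubule and glomerular RNA in it was not tested. Of 8 tested genes of retinoid metabolism and response 1 rose and 2 fell, beside 40.5% and 19.3% of all tested genes. Aldh1a2, which makes retinoic acid, rose 2.39-fold from 9.58 ± 1.34 to 22.9 ± 3.59 FPKM (limma adjusted p = 1.2e-05) and was still called higher with the glomerular score set equal (log2 difference 0.52), whereas its paralog Aldh1a1 was 6.07-fold lower.

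The receptors for fatty acids and oxysterols were higher as deposited with 1 exception, while scaling to 1 glomerular score put Ppard (−0.16), Nr1h2 (−0.11) and Nr1h3 (−0.54) below 0 and ended the call of Pparg (0.28, limma adjusted p = 0.0711). Pparg, known from fat cells and macrophages and studied in podocytes, stood at 3.05, 1.89, 2.41, 1.999 and 1.81 FPKM in wild type and at 3.83, 5.24, 3.64, 4.87 and 5.73 in G799R. No G799R library fell into the wild-type range, and the mean was 2.09-fold higher (log2 difference 0.81 ± 0.14 SE; limma adjusted p = 5.0e-04). Ppard, its widely expressed relative, was 1.42-fold higher (6.16 to 10.3 FPKM in wild type, 10.8 to 14.1 in G799R; limma adjusted p = 0.0057). Nr1h2, the gene of liver X receptor beta, was at 37.7, 39.0, 36.5, 35.5 and 33.0 FPKM in wild type against 52.2, 55.0, 56.5, 51.1 and 57.0, 1.497-fold higher without overlap (limma adjusted p = 2.0e-05). Nr1h3, of liver X receptor alpha, overlapped fully, at 5.38 to 8.34 FPKM and 5.33 to 9.19 (log2 difference 0.077, 95% interval −0.24 to 0.40; limma adjusted p = 0.666). The summed level of 10 macrophage markers was also higher, at 0.0171% to 0.0397% of FPKM for wild type against 0.0427% to 0.0725% for G799R, with 4 of the 10 called higher and none at 0, and its part in Pparg was not tested. Known targets did not share 1 direction. Shares over all tested genes were 40.5% higher and 19.3% lower as deposited, and 4.03% and 65.6% under glomerular marker scaling. Of 12 PPAR targets 3 rose and 7 fell, with the peroxisomal enzyme genes Acaa1b and Ehhadh 8.68-fold and 4.70-fold lower, while Angptl4 and Fabp4 were among those that rose (log2 differences 1.44 and 0.83). These last 2 were named after their values were seen. Of 8 tested targets of liver X receptors 1 rose and 1 fell, Pltp at 0.48 and Lpcat3 at −0.39 on the log2 scale, and 7 were lower and 0 higher under glomerular marker scaling.

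Of the 3 tested steroid receptor genes 1 was called. Nr3c1, of the glucocorticoid receptor, was at 41.4, 35.5, 39.0, 34.0 and 35.2 FPKM in wild type and at 42.3, 40.5, 44.7, 43.5 and 42.4 in G799R. The groups overlapped, since wild-type library 1 lay above G799R library 2, and the 1.15-fold higher mean passed the test (log2 difference 0.20 ± 0.065 SE; limma adjusted p = 0.0187). That call is lost under median-of-ratios scaling (0.029, adjusted p = 0.687) and turns to lower with the glomerular score set equal (−0.48, adjusted p = 4.3e-04). Nr3c2, of the mineralocorticoid receptor, was at 4.69 to 5.55 FPKM in wild type and 4.67 to 6.02 in G799R and was not called (log2 difference 0.037, 95% interval −0.16 to 0.23; limma adjusted p = 0.735). Esr1, of estrogen receptor alpha, stood near 1 FPKM in both groups (0.750 to 1.19 and 0.822 to 1.81) and was not called (adjusted p = 0.556). The targets of the mineralocorticoid receptor fell in 7 of 8 cases. Atp1b1, a subunit of the sodium pump, was 5.12-fold lower, and the 3 subunits of the epithelial sodium channel were among the 7. The exception was Sgk1, a kinase induced by both steroid receptors, at a log2 difference of 0.63 (limma adjusted p = 0.00473), named after its value was seen. It was not called higher under glomerular marker scaling, where 0 of these 8 targets were higher and 7 were lower. The lower tubule score of G799R stands beside these falls, and its part in them was not tested. Of 10 glucocorticoid receptor targets 3 rose and 1 fell, with the cell cycle inhibitor gene Cdkn1a 3.17-fold higher and Errfi1, a feedback inhibitor of the EGF receptor, 3.39-fold lower. Under glomerular marker scaling 1 of these 10 was higher and 6 were lower, beside 4.03% and 65.6% of all tested genes. As deposited, 40.5% and 19.3% of all tested genes were called higher and lower. All 8 tested genes that convert or carry steroid and thyroid hormones fell, with a median log2 difference of −1.36, among them Akr1c21, a hydroxysteroid dehydrogenase gene with close paralogs, 8.88-fold lower.

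Nr1d1 and Nr1d2, the genes of the REV-ERB repressors, differed more between libraries of 1 group than between the groups. REV-ERBs repress Arntl and Npas2, activators of the circadian clock, and their own mRNA cycles over the day. Nr1d1 was at 75.9, 42.2, 32.5, 36.2 and 38.3 FPKM in wild-type libraries 1 to 5 and at 89.8, 10.5, 14.1, 39.6 and 77.3 in G799R libraries 1 to 5. Nr1d2 was at 78.9, 55.6, 48.2, 49.8 and 47.3 FPKM in wild type and at 82.5, 11.8, 18.1, 31.3 and 56.5 in G799R. Both were highest in G799R library 1, high also in wild-type library 1, and lowest in G799R libraries 2 and 3. Neither was called (log2 differences −0.34 ± 0.54 and −0.77 ± 0.43 SE; limma adjusted p = 0.601 and 0.144), and the standard errors were the 2 largest among the 29 receptors. For Nr1d2 this rests on 1 library, as without G799R library 1 the difference was −1.10 (limma adjusted p = 0.0253). For Nr1d1 the difference without G799R library 2 was 0.057 (adjusted p = 0.924). The ratio of Nr1d2 to Nr1d1 ranged from 1.04 to 1.48 in wild type and from 0.731 to 1.29 in G799R, with overlapping groups.

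Arntl was at 0.946, 1.70, 3.37, 1.44 and 3.27 FPKM in wild-type libraries and at 0.183, 16.9, 13.3, 15.4 and 5.34 in G799R libraries, and Npas2 at 0.0870, 1.75, 1.68, 0.554 and 0.545 and 0.0700, 8.90, 8.19, 7.81 and 1.64. Both were lowest in G799R library 1, where Nr1d1 and Nr1d2 were highest, and highest in G799R library 2, where these were lowest. The other libraries did not all follow this order. In G799R library 5 Nr1d1, at 77.3 FPKM, and Arntl, at 5.34, were both above every wild-type library. G799R library 4 was close to wild-type library 5 in Nr1d1 (39.6 and 38.3), lower in Nr1d2 (31.3 and 47.3) and higher in Arntl (15.4 and 3.27). A relation between these genes was not tested, and collection times are not given. Arntl is outside the rule for naming genes, and its choice followed a look at its values. The groups of both genes overlapped and neither was called (limma adjusted p = 0.0803 and 0.0596). Clock was 1.40-fold higher (limma adjusted p = 8.5e-04), the 1 call among 5 tested genes of the REV-ERB and ROR target list. Under glomerular marker scaling 0 of these 5 were higher and 1 was lower, beside 4.03% and 65.6% of all tested genes. As deposited, 40.5% of all tested genes were called higher. Rora, which acts on the same DNA sites as an activator, was not called, at 9.55, 11.8, 9.80, 10.1 and 10.3 FPKM in wild type and 13.0, 9.57, 10.2, 9.59 and 10.4 in G799R (limma adjusted p = 0.819).

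**Figure D4:**
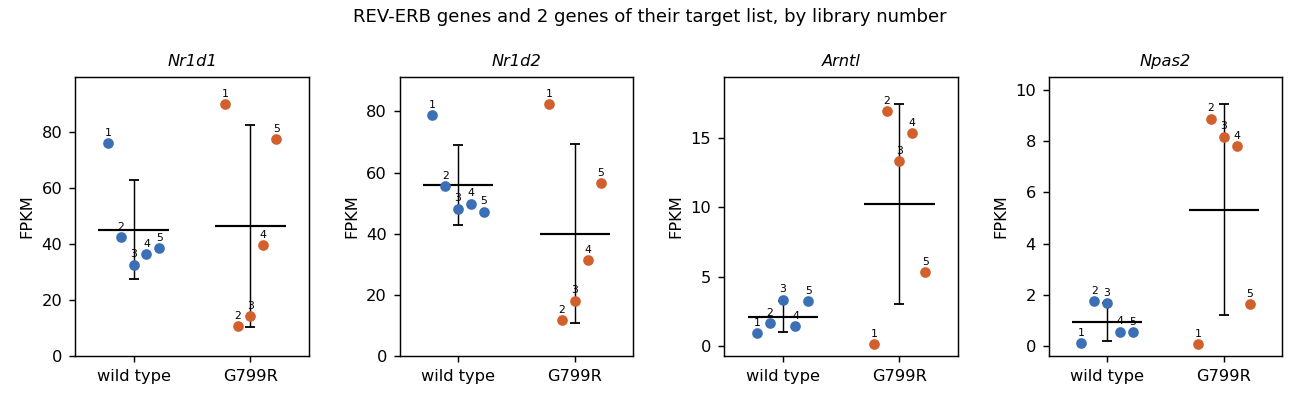
FPKM of Nr1d1, Nr1d2, Arntl and Npas2, each point 1 library with its number, horizontal lines the group means and bars 1 SD over 5 libraries, axes starting at or just below 0. G799R library 1 is the highest of its group for the 2 REV-ERB genes (89.8 and 82.5 FPKM) and the lowest for Arntl (0.183) and Npas2 (0.0700).

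The half-site AGGTCA is bound by REV-ERB and ROR proteins when the bases before it are rich in A and T. It lies at position −77 in the window of Nr1d2, read on the minus strand at chr14:18239057-18239356. Here the bases just before it are A and G without T, and binding was not tested. The window is shown with the half-site in capitals, as Nr1d2 is the REV-ERB gene whose window holds it.
Nr1d2: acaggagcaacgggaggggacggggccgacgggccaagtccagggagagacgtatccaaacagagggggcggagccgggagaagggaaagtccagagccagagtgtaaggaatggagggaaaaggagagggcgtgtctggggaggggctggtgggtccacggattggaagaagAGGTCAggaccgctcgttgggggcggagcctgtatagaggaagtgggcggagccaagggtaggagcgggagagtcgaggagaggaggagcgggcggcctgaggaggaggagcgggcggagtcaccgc
The same letters, searched on both strands, were in 16.3% of all windows and in 9 of the 48 receptor windows, and the window of Nr1d1 does not hold them.

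Among the other orphan receptors the COUP-TF genes, which act in the development of vessels and mesenchyme, rose as deposited, and scaling to 1 glomerular score turned Nr2f2 to −0.13 without a call. Nr2f1 was at 20.8, 11.6, 14.2, 13.7 and 11.3 FPKM in wild type and at 24.1, 31.5, 31.7, 39.8 and 31.0 in G799R. Wild-type library 1 was the highest of its group, at 20.8, and still below every G799R library. The mean was 2.21-fold higher, and the log2 difference of 1.11 ± 0.16 (SE; limma adjusted p = 1.8e-04) exceeded that of 11 of 12 endothelial, 10 of 11 mesangial and 14 of 15 podocyte markers. Nr2f2, known as the factor of venous identity in endothelium, was at 38.6, 36.1, 36.2, 33.1 and 34.8 FPKM against 53.6, 51.5, 44.3, 57.0 and 58.1, 1.48-fold higher (limma adjusted p = 1.5e-04). Nr2c1 and Nr2c2, the testicular receptors TR2 and TR4, were 1.23-fold and 1.27-fold higher (adjusted p = 0.0175 and 0.0142), and Nr2c2 overlapped between groups. Both calls were lost under median-of-ratios scaling (adjusted p = 0.259 and 0.101) and turned to lower under glomerular marker scaling (−0.33 and −0.32, limma adjusted p = 0.0171 and 0.00906). Nr2f6 just missed the threshold, at 15.5 to 19.4 FPKM in wild type and 13.3 to 15.9 in G799R (log2 difference −0.19, 95% interval −0.35 to −0.021; limma adjusted p = 0.0512). Nr4a2, a rapidly induced receptor, was at 1.36, 0.761, 1.14, 0.646 and 0.865 FPKM in wild type and 1.83, 1.09, 1.29, 1.66 and 1.90 in G799R. Its groups overlapped, and its call (adjusted p = 0.0277) was lost when any 1 of 6 libraries was left out (wild-type libraries 2, 4 and 5, G799R libraries 1, 4 and 5; log2 differences 0.33 to 0.46 over all 10 omissions). Nr4a3 was not called (0.372 to 0.700 and 0.337 to 1.62 FPKM; adjusted p = 0.438).

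Exons shared with a neighbour limit some of these values, because the library kit named in the labels is not described as keeping strand and whether counting used strand is not given in the sources used here. In GENCODE M21 54.4% of the exon bases of Nr2f6 lie opposite Ocel1, 34.1% of those of Rarb opposite Top2b and 30.7% of those of Nr2c2 opposite Mrps25. Thra and Nr1d1 overlap tail to tail over 263 bases, 5.7% of the exon bases of Thra and 8.55% of those of Nr1d1.

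The differences were recomputed with every library scaled to 1 glomerular score. This scaling moved the median of all tested genes from 0.17 to −0.43 and called 65.6% of them lower and 4.03% higher. All 6 receptors lower as deposited stayed lower, with log2 differences from −1.22 to −3.47. Of the 14 higher ones 9 were no longer called, with differences between −0.16 (Rarg) and 0.28 (Pparg), and Rxrb, Nr3c1, Nr2c1 and Nr2c2 turned to lower. Nr2f1 alone was still called higher, at 0.44 (limma adjusted p = 0.0129). A further 6 that had not been called were lower (Rxra, Nr1h3, Nr3c2, Nr1d2, Rora and Nr2f6), which makes 16 lower in all, or 55.2% of the 29. Median-of-ratios scaling, which put the median of all genes at 0.02 and called 23.3% higher and 25.5% lower, kept the same 6 lower and added Rxra and Nr2f6, and it left 9 higher: Rara, Rarb, Rarg, Ppard, Pparg, Nr1h2, Thra, Nr2f1 and Nr2f2.

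Within a genotype no receptor passed a test for following the tubule score. In a limma fit with genotype and the tubule score as terms, 0 of 29 receptors had an adjusted p under 0.05 for the score, as had 0.0686% of all tested genes. At an unadjusted p under 0.05 there were 7 of 29 receptors, and 13.6% of all tested genes. Of these 7, Hnf4a (slope 1.03 ± 0.21 SE log2 units per unit of score, limma adjusted p = 0.106), Esrrg (0.58) and Esrra (0.32) rose with the score, and Nr2f1 (−0.64), Thra (−0.48), Pparg (−0.47) and Nr2f2 (−0.25) ran against it. Hnf4a passed when G799R library 4 was left out and under median-of-ratios scaling. With the glomerular score as the term, again 0 of 29 passed (0.625% of all tested genes), and 10 of 29 had an unadjusted p under 0.05 (22.4% of all). Slopes were then positive for Rarg (1.21), Thra (1.12), Nr2f1 (1.05), Ppard (0.99), Nr2c2 (0.74) and Nr3c1 (0.47), and negative for Hnf4a (−1.55), Esrrg (−1.15), Thrb (−1.14) and Esrra (−0.67). The glomerular score varied more within wild type (SD 0.23) than within G799R (SD 0.061), so the slopes on it rest mostly on the wild-type libraries. Both scores come from the same libraries as the receptor values.

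**Figure D5:**
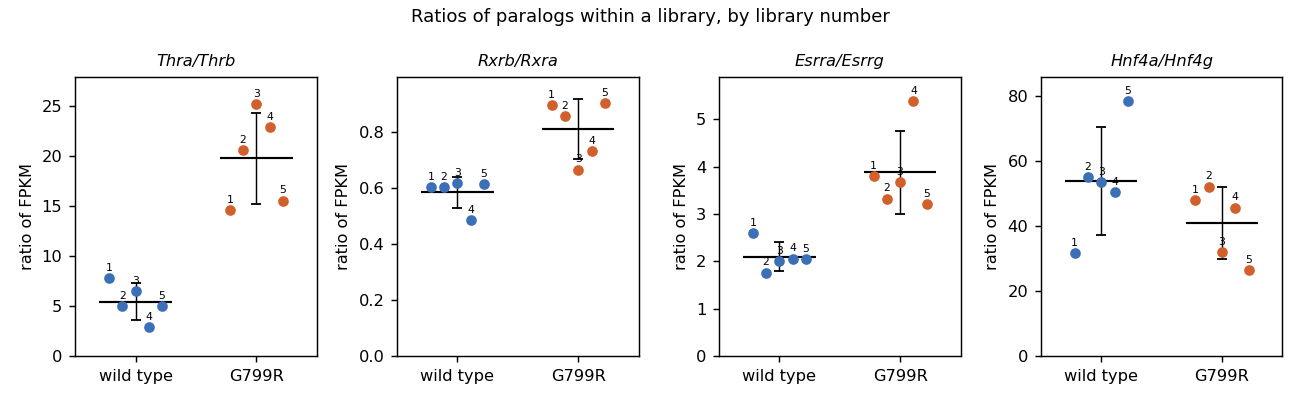
Ratios of FPKM of 4 receptor pairs within each library, each point 1 library with its number, horizontal lines the group means and bars 1 SD over 5 libraries, axes starting at 0. The groups are apart for Thra/Thrb (2.88 to 7.78 against 14.6 to 25.2), Rxrb/Rxra and Esrra/Esrrg, the only 3 of 13 pairs compared, and overlap for Hnf4a/Hnf4g, 1 of the other 10.

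Cofactors and further targets were counted from lists. All tested genes were called higher in 40.5% and lower in 19.3% of cases as deposited. These shares were 23.3% and 25.5% under median-of-ratios scaling, and 4.03% and 65.6% under glomerular marker scaling. Counts of a list near these shares say nothing particular about it. Of 14 coactivator genes 4 rose and 2 fell as deposited, against 0 higher and 4 lower under median-of-ratios scaling and 0 higher and 13 lower under glomerular marker scaling. Ppargc1a, the partner of the estrogen-related receptors and PPARs, was 3.10-fold lower, at 5.62, 8.20, 8.92, 11.0 and 9.31 FPKM in wild type and 2.23, 3.71, 2.42, 0.888 and 4.63 in G799R (limma adjusted p = 9.0e-04), while Carm1, an arginine methyltransferase, was 1.28-fold higher as deposited. Of 9 corepressor genes 4 rose and 0 fell, Tbl1x by 1.304-fold, and with the glomerular score set equal all 9 were lower. All 9 tested targets of the estrogen-related receptors fell, with a median log2 difference of −1.13, among them Cycs (cytochrome c, 2.51-fold) and Sdhb (respiratory complex II, 2.33-fold). Of 9 HNF4A targets 8 fell, with a median of −2.77, among them Apom (8.39-fold) and Cyp2j5 (7.03-fold, a gene with close paralogs). Pck1, a proximal tubule marker named after its value was seen, is 1 of these 8. Of 15 receptor genes listed from outside the 32, 8 were tested, of which 6 fell and 1 rose. The fatty acid receptor gene Ppara and the bile acid receptor gene Nr1h4 fell from 8.56 ± 1.91 to 1.76 ± 0.338 FPKM and from 28.2 ± 8.59 to 4.44 ± 1.22 FPKM. The lower tubule score of G799R stands beside the falls in these lists, and its part in them was not tested.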

How the data were processed

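RNA-seq of mouse kidney glomeruli was analysed in 10 libraries, 5 wild type and 5 G799R, grouped by their titles. The authors deposited 1 table of FPKM values. Per the submitters' processing notes, the tools were RSEM, StringTie 1.3.1, HISAT2, Bowtie2 2.2.8 and fastp 0.18.0, with no role or order given. Which build and annotation the authors used is not given in the sources used here. Symbols and positions were matched by Ensembl identifier to GENCODE M21 (21963 identifiers matched), and promoter sequences came from RefSeq on GRCm38.p6. FPKM is a relative unit, so a larger share of RNA from 1 cell type lowers the values of genes of the others, and the number of libraries and an unknown depth limit the precision. No 2 columns were identical, and 0 columns belonged to other samples.

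Values were transformed to log2(FPKM + 1), and all genes averaging 0.5 FPKM or more entered a limma-trend fit (limma 3.58.1, R 4.3.3; two-sided tests). No count model was used, since FPKM values are not counts. Scores were compared with an exact permutation test over all 252 assignments of libraries to genotypes. Fits were tested on simulated data with known differences. Named were all 32 receptors, Col4a3, up to 2 genes of each pathway list by smallest p and the highest gene of marker lists; some genes this rule names are not reported here. The receptors, lists and alternatives were chosen with earlier results of these data known. Alternatives were pseudocounts of 0.1 and 0.5, other filters (none, 2 FPKM), median-of-ratios, quantile and glomerular marker scaling, limma with a robust prior or no trend, the replicate number as a block, a covariate for the tubule score, and omitted libraries.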

Additional observations from a re-analysis of the deposited data

Results flagged for a closer look

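In 62 groups of 5 libraries (29 receptors and both scores, in each genotype) 3 held a library set apart from the other 4 by more than 0.71 of the group's range, and chance flags about 1 in 20 groups, or 3.1 of 62. Nr1d1 in wild-type library 1 was at 75.9 FPKM, with the other 4 at 32.5 to 42.2. Nr1d2 in the same library was at 78.9 FPKM, with the others at 47.3 to 55.6. Rora in G799R library 1 was at 13.0 FPKM, with the others at 9.57 to 10.4. What sets these libraries apart was not tested.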

How the results depend on the processing

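The 6 lower receptors were called lower under every alternative that tested them, except with the tubule score as a covariate, and Hnf4g was not tested at a filter of 2 FPKM. With that covariate 0 of all genes and 0 receptors in either direction were called by limma (743 genes at an unadjusted p under 0.05). The score nearly follows genotype, and the median standard error rose from 0.11 to 0.41. Called higher were 9 receptors under median-of-ratios scaling and 1 under glomerular marker scaling, where 16 were lower. The share of all calls that were higher went from 67.7% to 47.8% and 5.79%. Leaving out 1 library gave 13 to 14 receptors higher, 6 to 7 lower, 6990 to 8169 genes called, tubule score differences of −2.49 to −2.26, glomerular ones of 0.60 to 0.75, and 0 to 1 and 0 to 2 receptors with a slope on the tubule score (Hnf4a without G799R library 4) and the glomerular score (Hnf4a and Rarg without G799R library 5). Without G799R libraries 3 and 4, 12 were higher (Nr3c1 and Nr4a2 were lost), 6 lower, and 1 (Hnf4a) had a tubule score slope, as had 1 under median-of-ratios scaling. Leaving out libraries 3 and 4 gave 4854 of all tested genes higher and 2274 lower.

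Signs turned, with log2 differences of −0.10 (Rara), −0.070 (Rarb), −0.16 (Rarg), −0.35 (Rxrb), −0.16 (Ppard), −0.11 (Nr1h2), −0.54 (Nr1h3), −0.48 (Nr3c1), −0.55 (Nr3c2), −0.28 (Esr1), −0.61 (Rora), −0.33 (Nr2c1), −0.32 (Nr2c2), −0.13 (Nr2f2) and −0.081 (Nr4a3) under glomerular marker scaling. With the tubule score as a covariate they turned to −0.053 (Rara), −0.23 (Rarg), −0.14 (Ppard), −0.31 (Pparg), −0.29 (Nr1h3), −0.41 (Thra), −0.15 (Nr3c1), −0.23 (Nr2c2), −0.41 (Nr2f1), −0.037 (Nr2f2) and −0.51 (Nr4a2). Median-of-ratios scaling turned Nr1h3 (−0.080), Nr3c2 (−0.11), Esr1 (−0.0017) and Rora (−0.14), and quantile normalisation turned Rora (−0.023). Over omissions of 1 library Nr1h3 ran from −0.0010 to 0.18, Esr1 from −0.0077 to 0.15, Nr1d1 from −0.69 to 0.057 and Rora from −0.046 to 0.071. Beyond the scaling itself the cause was not tested. Replicate numbers did not pair the libraries (correlations of same-numbered deviations of −0.085 to 0.048 over 5 pairs). The replicate block gave 14 receptors higher and 7 lower, adding Nr2f6 (limma adjusted p = 0.0429). With it 4937 of all tested genes were called higher and 2451 lower.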

Other observations

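Of the 10 listed targets of the glucocorticoid receptor, 3 are given here by library, and the pattern among libraries was not tested. Fkbp5, a classic induced target, was at 10.4, 15.1, 10.6, 33.7 and 33.8 FPKM in G799R libraries 1 to 5 and at 18.5 to 24.4 in wild type. Zbtb16, another induced target, was at 2.48, 5.12, 1.27, 19.8 and 16.7 FPKM in G799R and at 5.40, 4.05, 2.85, 1.04 and 3.43 in wild type. Both were highest in G799R libraries 4 and 5, while Nr3c1 kept to 40.5 to 44.7 FPKM over these 5 libraries, and neither target was called between genotypes (limma adjusted p = 0.751 and 0.253). Tsc22d3, a further target, was at 84.2, 64.5, 51.2, 70.4 and 75.9 FPKM over these 5 libraries. It was highest in the first of them, and so did not share the order of Fkbp5 and Zbtb16. These genes fall outside the naming rule and were chosen after their values were seen.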
